A study of Mus musculus with 74 samples.

Results

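The interleukin-1 (IL-1) system was followed here through 10 genes: the ligands Il1a, Il1b and Il18, the receptor chains Il1r1 and Il1rap, the decoy receptor Il1r2, the receptor antagonist Il1rn, and the inflammasome genes Nlrp3, Pycard and Casp1. They were chosen by gene name, with earlier results of these data in view, from the 23297 features that carry a gene symbol in each of 2 expression tables. Each of the 10 has exactly 1 row in each table. Which earlier values led to the choice is not recorded, so the calls below are set beside the share of all genes called in the same comparison. Il1r2, which the group is named for, is given as levels and differences with no test.

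Myeloid cells were isolated by beads that bind their surface protein CD11b, from the spinal cord (microglia, MG below) and the sciatic nerve (peripheral macrophages, MP below) of female mice on the C57BL/6J background. G93A mice carry a human SOD1 transgene with the G93A mutation and are a model of amyotrophic lateral sclerosis. Non-grafted G93A mice were sampled before symptoms (mean age 50.8 days, 4 MG and 3 MP libraries), at onset, defined by peak weight (105 days, 5 MG and 3 MP), with early symptoms (152.6 days, 4 MG and 4 MP) and at end stage (169.4 days, 4 MG and 4 MP). As MG controls served wildtype human SOD1 transgenic mice (WT) at 107.3 and 165.4 days and non-transgenic C57BL/6J mice (B6) at 109.8 and 165.6 days, 4 libraries in each group. The labels of 4 further MP libraries, at an age corresponding to end stage, conflict: WT by their description, but G93A by title, source and strain. They are called "described as WT". In the grafted set, every recipient was a G93A mouse, and the bone marrow given at onset was either of G93A or of WT origin. Cells were taken with early symptoms (3 and 3 MG, 3 and 2 MP libraries for G93A and WT marrow) or at end stage (3 and 3 MG, 3 and 3 MP). The labels do not say how many of the cells in these libraries came from the donor. A library stands for 1 mouse, apart from the pre-symptomatic MP libraries, for which the nerves of 2 mice were pooled.

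Values are FPKM, fragments scaled to transcript length and library size, so levels of different genes can be set side by side. Read depth is unknown. MG libraries held 10127 to 11697 genes above 1 FPKM in the non-grafted set and MP libraries 7939 to 10031. Neutrophils and monocytes also carry CD11b. S100a8, a calcium-binding protein that is abundant in neutrophils, ran from 24808 to 80760 FPKM in the 18 non-grafted MP libraries. There, the 18 neutrophil markers summed to between 80247 and 217222 FPKM, against 348 to 1306 FPKM for 4 general macrophage markers (Csf1r, Adgre1, C1qa and Itgam). MP libraries therefore held far more RNA of neutrophil genes than of the macrophage genes their label names. In non-grafted MG, S100a8 was between 8.99 and 2020 FPKM in 29 libraries and above 10000 FPKM in 4, namely G93A onset replicate 5 (39129), G93A end stage replicate 4 (20413) and WT end-age replicates 1 and 2 (32464 and 16679). RNA of the myelin gene Mbp also differed widely among MG libraries, from 568 to 24164 FPKM. In bulk samples, fewer cells of a type and less RNA per cell cannot be told apart.

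IL-1 alpha (Il1a) and IL-1 beta (Il1b) signal through Il1r1 together with its accessory chain Il1rap. Il1r2 binds the ligands but carries no signalling domain, and Il1rn blocks Il1r1. IL-1 beta and IL-18 are made as precursors that caspase-1 (Casp1) cleaves after a sensor such as NLRP3 and the adaptor ASC (Pycard) assemble into an inflammasome. Microglia are a main source of IL-1 in the spinal cord, and neutrophils carry much of the decoy receptor. RNA levels say nothing of cleavage or secretion.

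In mm10 coordinates, as deposited, Il1r2 (chr1:40084714-40125230) and Il1r1 (chr1:40225080-40316198) both lie on the plus strand of chromosome 1. Il1a (chr2:129299610-129309973) and Il1b (chr2:129364577-129371142) both lie on the minus strand of chromosome 2, and Il1rn (chr2:24336853-24351494) lies elsewhere on that chromosome. Il18 is at chr9:50554700-50581841, Casp1 at chr9:5298517-5307289, Pycard at chr7:127991373-127993867, Nlrp3 at chr11:59541569-59566956 and Il1rap at chr16:26581705-26730128.

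Promoter sequences are shown for 5 members, because Il1a, Il1b and Il1rn moved up together in MG, Il18 moved down, and Il1r2 had its high values in MP. Each is the 200 bases before the RefSeq start (GRCm38.p6, the assembly of mm10) that lies nearest to the deposited 5′ end of the gene. Capitals mark a match, on either strand, to a TATA box (TATAAA), a PU.1 motif (GAGGAA), a C/EBP motif (TTNCNNAA), an AP-1 motif (TGANTCA), the interferon response element or the NF-kB consensus. PU.1 and C/EBP factors are known regulators of myeloid genes.
Il1a promoter, chr2:129309973-129310172, minus strand: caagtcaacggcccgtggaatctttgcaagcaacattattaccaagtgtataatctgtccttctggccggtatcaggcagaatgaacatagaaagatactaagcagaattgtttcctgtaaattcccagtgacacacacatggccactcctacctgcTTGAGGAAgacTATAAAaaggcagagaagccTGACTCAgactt
Il1b promoter, chr2:129371140-129371339, minus strand: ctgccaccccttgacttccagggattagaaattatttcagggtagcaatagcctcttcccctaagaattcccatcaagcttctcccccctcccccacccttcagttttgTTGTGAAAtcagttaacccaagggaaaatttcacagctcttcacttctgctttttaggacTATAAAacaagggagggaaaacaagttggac
Il1rn promoter, chr2:24336660-24336859, plus strand: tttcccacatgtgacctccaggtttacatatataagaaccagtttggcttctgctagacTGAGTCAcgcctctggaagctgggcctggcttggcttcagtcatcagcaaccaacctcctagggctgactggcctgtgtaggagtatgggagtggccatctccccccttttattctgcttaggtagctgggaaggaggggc
Il18 promoter, chr9:50554500-50554699, plus strand: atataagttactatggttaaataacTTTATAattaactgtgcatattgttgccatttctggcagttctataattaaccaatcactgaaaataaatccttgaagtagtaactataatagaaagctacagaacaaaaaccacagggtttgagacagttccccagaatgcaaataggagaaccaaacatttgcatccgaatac
Il1r2 promoter, chr1:40085893-40086092, plus strand: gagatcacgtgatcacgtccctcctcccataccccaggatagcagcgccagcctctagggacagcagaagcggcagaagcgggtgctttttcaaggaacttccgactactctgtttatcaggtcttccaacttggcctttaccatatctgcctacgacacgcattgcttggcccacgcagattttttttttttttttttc

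The Il1a window held a TATA box 32 bases and the Il1b window one 31 bases before the start, as 9.96% of the 32851 RefSeq windows of this length did on either strand. In Il1a a PU.1 motif, present in 19% of windows, overlapped a C/EBP motif, present in 30.0%. Il1a and Il1rn each held an AP-1 motif, present in 5.48%. The TATA letters in the Il18 window lay on the other strand, 175 bases before the start, and the Il1r2 window, whose RefSeq start lies 1379 bases from the deposited 5′ end, held no match. Among the members, Nlrp3 alone held the NF-kB consensus in its window, as 6.07% of windows did, and no member held the interferon element (2.27% of windows). These matches describe letters and not bound sites.

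Between the pre-symptomatic and the symptomatic stages of G93A mice, the ligands Il1a and Il1b, the receptor Il1r1, the antagonist Il1rn and the inflammasome genes Pycard and Casp1 rose in spinal cord MG, while Il18 fell. Stage and age cannot be told apart here, since the pre-symptomatic mice were 50.8 days old on average and the others 152.6 and 169.4 days. In WT mice, whose ages were not tested against each other, group means at the onset and the end-stage age were 0.78 and 21.2 FPKM for Il1rn, 3.91 and 33.5 FPKM for Il1b, 20.03 and 38.8 FPKM for Il1a, 18.3 and 42.3 FPKM for Pycard and 20.7 and 37.2 FPKM for Casp1. For Il18 they were 32.6 and 31.1 FPKM and for Il1r1 0.43 and 0.76 FPKM. At the end-stage age WT Il1rn ran from 0.68 to 44.8 FPKM and Il1b from 2.98 to 76.3 FPKM. Both were highest in replicates 1 and 2, with S100a8 above 10000 FPKM. B6 means at the 2 ages were 0.125 and 1.87 FPKM for Il1rn, 0.96 and 4.6 FPKM for Il1b and 7.49 and 22.5 FPKM for Il1a. They were 8.47 and 21.6 FPKM for Pycard, 12.1 and 22.2 FPKM for Casp1, 31.7 and 35.3 FPKM for Il18 and 0.245 and 0.58 FPKM for Il1r1. The change with stage in G93A mice was tested with limma on log2(FPKM + 1) in a fit of the 33 non-grafted MG libraries. A gene was called at an adjusted p (Benjamini-Hochberg over all genes) under 0.05. Between early symptoms and the pre-symptomatic stage, 6 of the 9 tested members were called higher and 0 lower, in a comparison that called 35.2% of all genes. Between end stage and the pre-symptomatic stage, 6 were called higher and 1 lower, where 55.9% of all genes were called. The 10 members' median difference was 1.34 in early symptoms and 1.55 at end stage on the log2(FPKM + 1) scale, beside medians over all genes of 0.05 and 0.03. Both comparisons share the pre-symptomatic libraries, and both shares of all genes are large.

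The antagonist Il1rn had the largest difference among the members called. Its pre-symptomatic levels were 1.67, 0.01, 1.04 and 1.46 FPKM, its early levels 15.8, 33.3, 25.9 and 11.1 FPKM, and its end-stage levels 18.98, 13.8, 14.6 and 15.01 FPKM. Every library with symptoms was above every pre-symptomatic one. The difference was 3.44 ± 0.73 (SE, n = 4 against 4) on the log2 scale in early symptoms (limma, adjusted p = 0.00159) and 3.10 ± 0.73 at end stage (adjusted p = 0.00142). Il1b, the ligand that Il1rn opposes, was at 0.44, 0.61, 1.88 and 1.49 FPKM before symptoms and at 9.98, 22.6, 15.2 and 7.57 FPKM in early symptoms. At end stage it was at 19.9, 10.5, 10.1 and 26.2 FPKM, and again no library with symptoms overlapped the pre-symptomatic range. Il1b rose by 2.77 ± 0.80 in early symptoms (adjusted p = 0.0124 by limma) and by 3.02 ± 0.80 at end stage (adjusted p = 0.0032), on the log2 scale.

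Il1a was the more abundant of the pair in spinal cord, above Il1b in 30 of the 33 non-grafted MG libraries. The 3 exceptions, G93A onset replicate 5, G93A end stage replicate 4 and WT end-age replicate 1, are among the 4 with S100a8 above 10000 FPKM. Il1a was at 7.97, 5.36, 21.2 and 28.3 FPKM before symptoms, at 32.4, 68.3, 43.8 and 30.9 FPKM in early symptoms, and at 57.4, 43.8, 42.9 and 21.7 FPKM at end stage. It rose by 1.62 ± 0.59 (limma, adjusted p = 0.0371) and 1.53 ± 0.59 (adjusted p = 0.0307) on the log2 scale, and at end stage its range overlapped the pre-symptomatic one. The early call was lost without pre-symptomatic replicate 1 or 2 or early replicate 2 or 3 (adjusted p up to 0.138), and the end-stage call without pre-symptomatic replicate 1 or 2 or end-stage replicate 1, 2 or 3 (adjusted p up to 0.126).

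Il18 moved against the other ligands. Its levels were 25.7, 25.6, 26.7 and 27.7 FPKM before symptoms, 18.4, 15.7, 20.01 and 23.8 FPKM in early symptoms, and 16.1, 13.8, 12.2 and 12.5 FPKM at end stage. All 8 libraries with symptoms were below the 4 without. The end-stage difference was -0.91 ± 0.20 on the log2 scale (limma, adjusted p = 9.35e-04). The early difference of -0.44 ± 0.20 did not pass (adjusted p = 0.0847). Il18bp, which encodes the protein that binds and neutralises IL-18, rose in the same libraries by 2.09 ± 0.41 in early symptoms (adjusted p = 8.75e-04) and 3.13 ± 0.41 at end stage (adjusted p = 7.47e-06).

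The signalling receptor Il1r1 was low throughout MG but rose with stage. It was at 0.59, 0.26, 0.50 and 0.29 FPKM before symptoms, at 3.27, 3.33, 2.66 and 1.03 FPKM in early symptoms, and at 2.78, 2.77, 3.33 and 3.83 FPKM at end stage. No library with symptoms overlapped the pre-symptomatic ones. The differences were 1.29 ± 0.31 (limma, adjusted p = 0.00398) and 1.57 ± 0.31 (adjusted p = 3.86e-04) on the log2 scale, which understates changes of genes at this level. The accessory chain Il1rap did not pass in either comparison, with differences of -0.11 ± 0.34 and 0.55 ± 0.34. Its end-stage levels were 3.03, 3.86 and 3.94 FPKM with a single value of 21.2 FPKM in replicate 4, the library with high S100a8.

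Of the inflammasome genes, the adaptor Pycard and the protease Casp1 rose, and the sensor Nlrp3 did not pass. Pycard was at 7.62, 6.52, 15.3 and 23.4 FPKM before symptoms and at 69.2, 61.1, 56.0 and 28.6 FPKM at end stage, with early values of 45.9, 66.8, 46.9 and 40.7 FPKM. Casp1 was at 8.34, 9.35, 13.9 and 24.9 FPKM before symptoms, at 34.4, 50.9, 30.6 and 29.8 FPKM in early symptoms, and at 43.9, 40.7, 40.9 and 30.1 FPKM at end stage. Both genes were higher in each of the 8 libraries with symptoms than in any of the 4 without. Pycard rose by 1.99 ± 0.58 (limma, adjusted p = 0.0128) and 2.04 ± 0.58 (adjusted p = 0.00504) on the log2 scale, and Casp1 by 1.397 ± 0.48 (adjusted p = 0.0273) and 1.51 ± 0.48 (adjusted p = 0.0101). Nlrp3 was at 0.39, 0.99, 2.48 and 3.55 FPKM before symptoms and at 5.00, 3.47, 3.72 and 2.54 FPKM at end stage, a difference of 0.84 ± 0.39 (adjusted p = 0.0703).

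**Figure D1:**
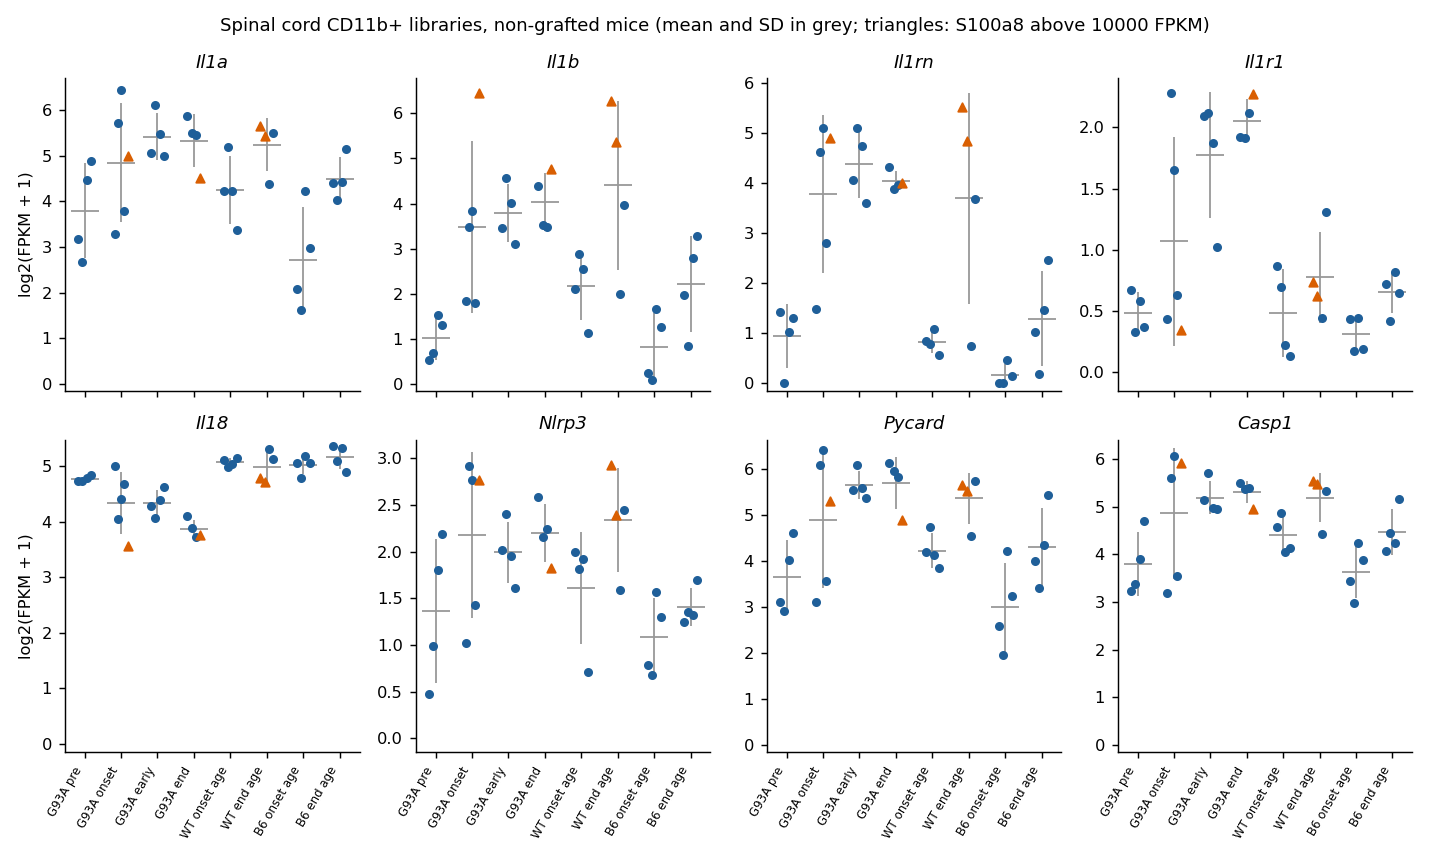
Levels of 8 members in the 33 non-grafted spinal cord libraries, as log2(FPKM + 1) on the vertical axis, by genotype and stage on the horizontal axis, with 1 point per mouse and the group mean and SD in grey. Triangles mark the 4 libraries with S100a8 above 10000 FPKM, Il18 has its lowest group mean in G93A end stage (13.7 FPKM), and Il1r1 its highest (3.18 FPKM).

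RNA of other cell types differed over the same stages. Mbp was at 21094 to 24164 FPKM in the 4 pre-symptomatic MG libraries, 1315 to 10029 FPKM in early symptoms and 1317 to 8319 FPKM at end stage. The 7 oligodendrocyte markers summed to 27769 to 32336 FPKM, 1818 to 13342 FPKM and 1831 to 11227 FPKM, and the 4 general macrophage markers to 552 to 2223 FPKM, 3020 to 5673 FPKM and 2279 to 6054 FPKM. With a term for oligodendrocyte RNA, an alternative added after the data were seen, 2 members were called in early symptoms (Il1rn at 2.25 ± 0.52 and Il1r1 at 0.98 ± 0.30) and 1 at end stage (Il1r1 at 1.11 ± 0.32, limma, adjusted p = 0.019). With this term 15.2% of all genes were called in early symptoms and 16.2% at end stage. Without early replicate 2 the number called in early symptoms was 2, the calls of Il1a, Il1b, Pycard and Casp1 being lost. Without pre-symptomatic replicate 2 those of Il1a, Pycard and Casp1 were lost, and without pre-symptomatic replicate 1 those of Il1a and Casp1.

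**Figure D2:**
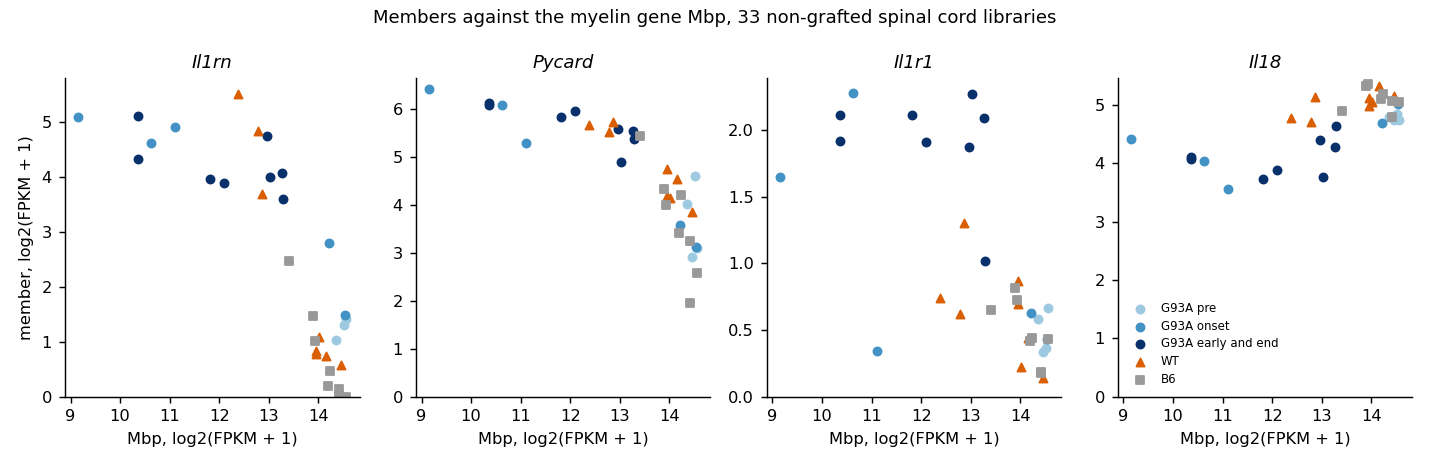
Il1rn, Pycard, Il1r1 and Il18 (vertical axes, log2(FPKM + 1)) against the myelin gene Mbp (horizontal axis, log2(FPKM + 1)) in the 33 non-grafted spinal cord libraries, coloured by genotype and stage. The 4 pre-symptomatic G93A libraries lie at the high end of Mbp (21094 to 24164 FPKM), with Il1rn of at most 1.67 FPKM and Pycard of 6.52 to 23.4 FPKM.

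Against WT mice of the same age, 2 members stood apart in end-stage MG: Il1r1 was higher and Il18 lower in G93A. They were the 1 higher and 1 lower call among 9 tested members, where 7.0% of all genes were called. Il18 was at 26.5, 25.2, 38.9 and 33.9 FPKM in WT, above the G93A range of 12.2 to 16.1 FPKM, a difference of -1.12 ± 0.20 on the log2 scale (limma, adjusted p = 0.00115). Il1r1 was at 0.67, 0.54, 0.36 and 1.47 FPKM in WT, below the G93A range of 2.77 to 3.83 FPKM, a difference of 1.28 ± 0.31 (limma, adjusted p = 0.0113). As given above, Il1r1 was tested only through the G93A groups in which it is high, so this call is a description only. Without WT replicate 3 the Il1r1 call was lost (limma, adjusted p = 0.0501), as it was without the libraries with S100a8 above 10000 FPKM (1.11 ± 0.39), so that the number called was then 1. The shares of all genes called were then 3.17% and 14.4%.

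The other members overlapped between the genotypes at end stage, and none passed. Il1b was at 76.3, 40.2, 2.98 and 14.7 FPKM in WT, and Il1rn at 44.8, 27.6, 0.68 and 11.8 FPKM. The first 2 values of each are those of the WT libraries with S100a8 of 32464 and 16679 FPKM. The differences were -0.37 ± 0.80 for Il1b, 0.35 ± 0.73 for Il1rn, 0.09 ± 0.59 for Il1a, 0.33 ± 0.58 for Pycard, 0.11 ± 0.48 for Casp1, -0.14 ± 0.39 for Nlrp3 and -0.05 ± 0.34 for Il1rap. The part of neutrophil RNA in these values was not tested further than by the alternatives in the closing section. With B6 in place of WT, 4 members were called, namely Il18 (-1.30), Il1r1 (1.402), Il1rn (2.75) and Pycard (1.4), where 46.2% of all genes were called.

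At onset, Il1rn was higher and Il18 lower in G93A than in WT of that age, 2 calls among 9 tested members where 4.31% of all genes were called. Il1rn was at 1.80, 23.6, 33.3, 5.97 and 28.9 FPKM in G93A, all above the WT values of 0.79, 0.72, 1.13 and 0.49 FPKM (2.96 ± 0.69, limma, adjusted p = 0.0453). Il18 was at 31.1, 15.5, 20.2, 24.7 and 10.8 FPKM in G93A against 33.5, 30.7, 31.96 and 34.4 FPKM in WT, with overlap (-0.73 ± 0.19, adjusted p = 0.0482). The onset group was split. Replicates 1 and 4, with Mbp of 23950 and 18996 FPKM, had low levels of Il1a (8.79 and 12.8 FPKM), Pycard (7.72 and 11.0 FPKM) and Casp1 (8.09 and 10.6 FPKM), while replicates 2, 3 and 5, with Mbp of 568 to 2194 FPKM, had 30.99 to 86.3, 38.5 to 84.4 and 47.7 to 65.5 FPKM. Both calls were lost without G93A replicate 2, 3 or 5 or without any of the 4 WT libraries (limma, adjusted p up to 0.165). At most 0.137% of all genes were called in any of these fits. With the oligodendrocyte term, median-ratio scaling, no filter on low values or a fit of the compared groups alone, 0 members were called. The shares of all genes called were then 0.00851%, 0.272%, 0.156% and 0.00%. Without the libraries above 10000 FPKM of S100a8, 0 members were called, where 0.155% of all genes were called. These counts of 0 are near the shares over all genes and are not read as particular to the members.

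**Figure D3:**
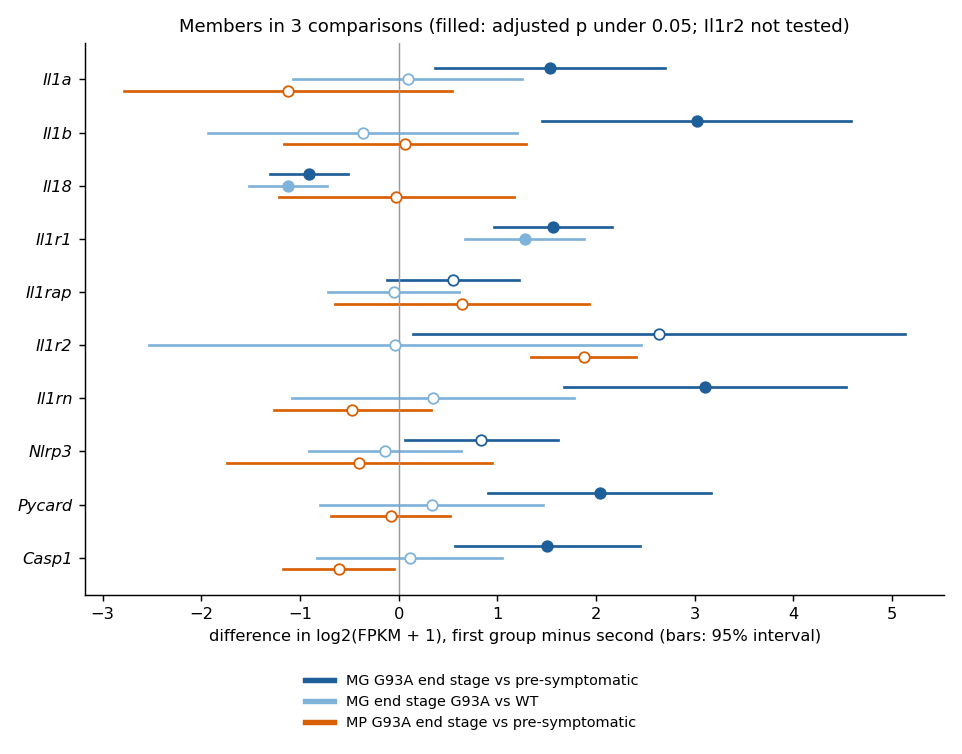
Differences in log2(FPKM + 1) (horizontal axis, first group minus second, with 95% intervals) for each member (vertical axis) in 3 comparisons, where filled points passed at adjusted p under 0.05 and Il1r2 was not tested. Il18 and Il1r1 are the members with filled points in both spinal cord comparisons, and in the nerve Il1r2 differed by 1.87.

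In spinal cord the decoy receptor Il1r2 was low apart from the libraries rich in neutrophil RNA. Across the 33 non-grafted MG libraries its median was 0.91 FPKM, and the 29 libraries with S100a8 up to 2020 FPKM did not exceed 4.45 FPKM. In the 4 others it was at 83.7 (G93A onset replicate 5), 384 (G93A end stage replicate 4), 44.2 and 29.0 FPKM (WT end-age replicates 1 and 2). As FPKM of Il1r2 per 1000 FPKM of S100a8, these 4 held 2.14, 18.8, 1.36 and 1.74, so end-stage replicate 4 had more Il1r2 for its S100a8 than the other 3. That library also had the most RNA of 7 monocyte markers in non-grafted MG, at 5871 FPKM in sum.

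Within groups, several members went up and down with S100a8 among the MG libraries. The relation was computed on deviations from group means of log2(FPKM + 1), with two-sided permutation within groups and adjustment over 18 relations. Since 4 libraries stood apart in S100a8, it was also computed in the other 29, an unplanned alternative adjusted over 9 relations. There Il1r2 had a Pearson r of 0.861 and a Spearman rho of 0.862, given with no p. Il1b had r = 0.692 and rho = 0.670 (permutation, adjusted p = 0.0072 and 0.0054), Il1rn r = 0.553 and rho = 0.652 (adjusted p = 0.00731 and 0.0054), and 7 of 9 tested members passed. Il18 did not, with r = -0.008 and rho = -0.042 (permutation, adjusted p = 0.969 and 0.851), and nor did Il1r1, with r = 0.227 and rho = 0.378 (adjusted p = 0.184 and 0.0674). The share of all genes that would pass was not computed. The count here and those in the next paragraph are therefore not read as particular to the members.

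Over all 33 MG libraries, r was 0.894 for Il1r2, 0.842 for Il1b (permutation, p = 1e-05, the smallest the permutations can give, adjusted p = 1.8e-04), 0.677 for Il1rap (adjusted p = 0.00234) and 0.615 for Il1rn (adjusted p = 0.0213), and these 3 members passed of 9 tested. Without the 2 libraries farthest from the median of S100a8, r was 0.734 for Il1b, 0.676 for Il1rap and 0.546 for Il1rn. Il18 had r = -0.521 over all 33 (adjusted p = 0.114) and -0.208 without those 2. In the 18 non-grafted MP libraries 0 of 9 tested members passed, and Il1r2 had r = -0.484, which became 0.102 without the 2 farthest libraries and so rests on them.

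**Figure D4:**
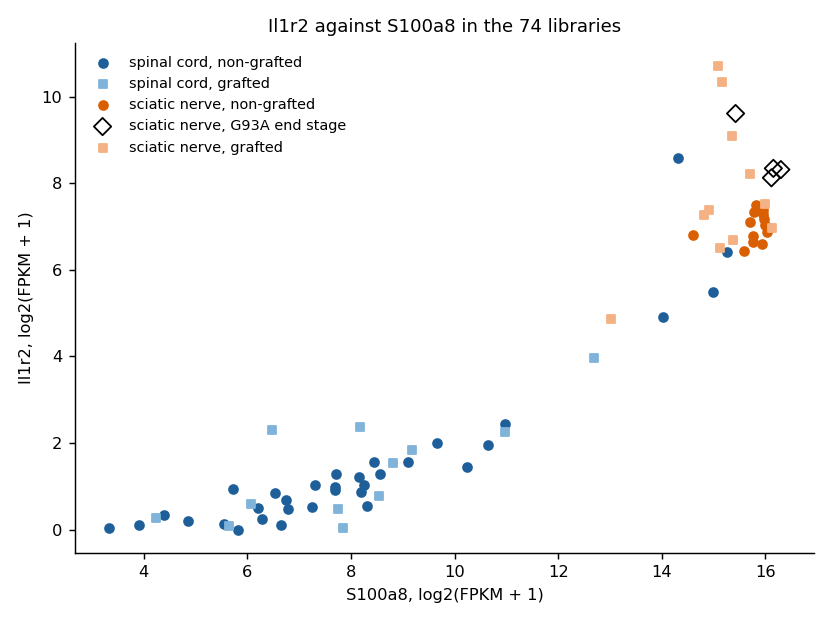
Il1r2 (vertical axis) against S100a8 (horizontal axis), both as log2(FPKM + 1), with 1 point per library for all 74, where colour and shape give tissue and graft and diamonds the 4 G93A end-stage nerve libraries. Spinal cord libraries with S100a8 up to 2020 FPKM had at most 4.45 FPKM of Il1r2 (non-grafted), and the end-stage nerve libraries had 278 to 780 FPKM.

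In the sciatic nerve the end-stage G93A libraries had more Il1r2 than any other non-grafted MP library. Il1r2 was at 96.4, 110 and 108 FPKM before symptoms, 86.2, 116.95 and 99.5 FPKM at onset, 131.06, 165, 144 and 154 FPKM in early symptoms, and 324, 278, 317 and 780 FPKM at end stage. The libraries described as WT, of the same age, were at 136.75, 179, 160 and 123.18 FPKM. The end-stage group did not overlap with any of these groups, and the early group lay above the pre-symptomatic and onset groups. The mean was 425 ± 238 FPKM (SD, n = 4) at end stage and 105 ± 7.41 FPKM (SD, n = 3) before symptoms, a difference of 1.87 ± 0.27 (SE) on the log2 scale, and 1.38 ± 0.25 against the libraries described as WT. Early symptoms differed from the pre-symptomatic stage by 0.49 ± 0.27. Because Il1r2 was chosen in view of earlier results, no p is given.

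S100a8 did not separate these groups in the way Il1r2 did. It was at 73049, 71188, 80760 and 44054 FPKM at end stage, at 62868, 24808 and 55648 FPKM before symptoms, and at 53798, 58174, 56076 and 69329 FPKM in the libraries described as WT. End-stage replicate 4, the lowest of its group in S100a8, had the most Il1r2. Per 1000 FPKM of S100a8, Il1r2 was at 4.43, 3.91, 3.93 and 17.7 FPKM at end stage, at 1.53 to 3.08 FPKM in 13 of the 14 other libraries and at 4.43 FPKM in pre-symptomatic replicate 2, the library with the lowest S100a8. The 7 monocyte markers summed to 7640 to 13147 FPKM at end stage, 3669 to 8211 FPKM before symptoms and 4896 to 7033 FPKM in the libraries described as WT. Their part in the Il1r2 values was not tested.

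No tested member passed in the nerve. Between early symptoms and the pre-symptomatic stage 0 of 8 tested members were called, where 0.00% of 10260 genes were called and 535 had an unadjusted p under 0.05. At end stage against the pre-symptomatic stage 0 of 8 were called, where the share called was 0.00975% (1 gene). Il1r2 was among the 10260 genes fitted and so counts toward these shares. Nothing is read from it there, since it was chosen in view of earlier results. Against the libraries described as WT 0 of 8 were called, with 0.00% of all genes called and 662 at an unadjusted p under 0.05. The members' median differences were 0.04, -0.08 and -0.20, beside -0.09, -0.12 and -0.02 over all genes.

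The levels in the nerve were nevertheless far from uniform. Casp1 was at 41.3, 35.6, 42.1 and 20.9 FPKM at end stage, below 54.5, 49.99 and 51.3 FPKM before symptoms (-0.61 ± 0.29, limma, adjusted p = 0.762) and below 58.0, 90.6, 60.6 and 80.7 FPKM in the libraries described as WT (-1.06 ± 0.27, adjusted p = 0.43). Il1b was at 135.3, 115.09 and 58.5 FPKM before symptoms, 195, 256 and 203 FPKM at onset and 179, 239, 135.88 and 17.8 FPKM at end stage, with the lowest value in replicate 4. The libraries described as WT had 193, 593, 244 and 154 FPKM. Il1rn ran from 18.5 to 96.6 FPKM over the 18 libraries, Pycard from 14.9 to 41.6 FPKM, Il1rap from 2.07 to 39.8 FPKM and Nlrp3 from 0.85 to 18.3 FPKM, with overlapping groups in the comparisons made. Il1r1 was listed at 0 in 14 of the 18 libraries and was not tested there. Il1a was listed at 0 in 6 and reached at most 7.32 FPKM.

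**Figure D5:**
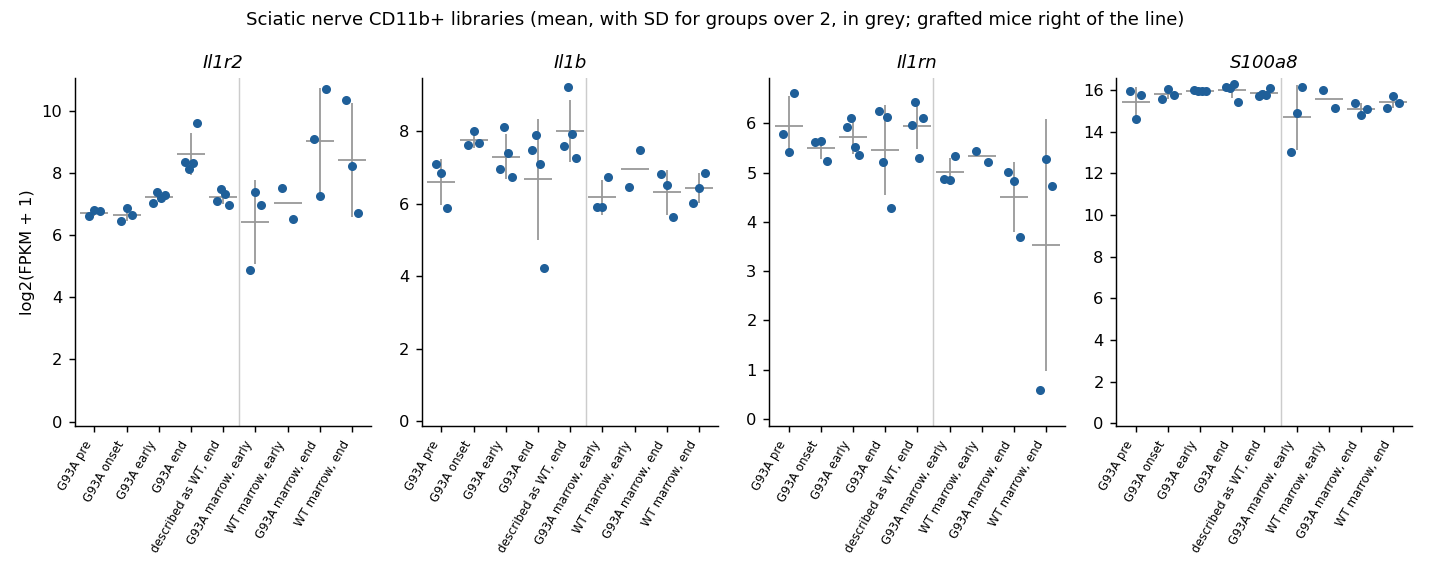
Il1r2, Il1b, Il1rn and S100a8 in the 29 sciatic nerve libraries, as log2(FPKM + 1) on the vertical axis, by group on the horizontal axis, with the mean and, for groups over 2 libraries, the SD in grey, and grafted mice right of the line. Il1r2 at G93A end stage (278 to 780 FPKM) lies above every other non-grafted group, while S100a8 there (44054 to 80760 FPKM) overlaps them through its lowest library, replicate 4.

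The tissues differed in which IL-1 ligand they held. Il1b was above Il1a in all 18 non-grafted MP libraries, and Il18 was above Il1a in those 18 but in 16 of the 33 MG libraries. FPKM sums of the tissues differ, and scaling by median ratios moved the median over all genes from -0.17 to -0.57 before symptoms and from -0.18 to 0.19 for the change with stage, with no change of direction in a called member. Before symptoms, MP held more Il1b (5.60 ± 0.81 on the log2 scale, limma, adjusted p = 2.8e-07), Il1rn (5.00 ± 0.69, adjusted p = 1.15e-07) and Casp1 (1.93 ± 0.45, adjusted p = 3.43e-04) than MG, and less Il18 (-1.27 ± 0.40, adjusted p = 0.00601) and Il1a (-1.80 ± 0.72, adjusted p = 0.033). These are 3 higher and 2 lower calls of 8 tested members, where 54.7% of all genes were called. Il1r2 differed by 6.18 ± 1.12, from 0.08 to 1.03 FPKM in MG and 96.4 to 110 FPKM in MP.

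Neutrophil RNA parted the tissues as well. S100a8 was at 13.96 to 157 FPKM in the 4 MG and 24808 to 62868 FPKM in the 3 MP libraries. With a term for 18 neutrophil markers 0 members were called, where 10.0% of all genes were called, and Il1r2 then differed by -1.04 ± 0.69. Since neutrophil RNA and tissue go together in these groups, the fit with this term cannot tell one from the other. Without MP replicate 1 the number called was 3, where 52.5% of all genes were called. The Il18 call was then lost (limma, adjusted p = 0.0508) together with that of Il1a, whose call was also lost without MG replicate 3 or 4 (adjusted p up to 0.304).

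The change from the pre-symptomatic stage to end stage differed between the tissues for Il1rn, Pycard and Casp1. In this interaction fit of all 51 non-grafted libraries, 3 of 8 tested members were called, all lower in MP, where 19.8% of all genes were called. Il1rn went from 1.04 to 15.6 FPKM in MG and from 64.1 to 49.5 FPKM in MP (group means), a difference of -3.57 ± 0.94 between the log2 changes (limma, adjusted p = 0.00932). Casp1 went from 14.1 to 38.9 FPKM in MG and from 51.9 to 34.98 FPKM in MP (-2.11 ± 0.61, adjusted p = 0.0156), and Pycard from 13.2 to 53.7 FPKM and from 27.9 to 26.95 FPKM (-2.12 ± 0.72, adjusted p = 0.0338). The Pycard call was lost without MG pre-symptomatic replicate 1 or 2, MG end-stage replicate 1, 2 or 3, MP pre-symptomatic replicate 3 or MP end-stage replicate 2 (adjusted p up to 0.0846). With the oligodendrocyte term 0 members were called, where 5.73% of all genes were called.

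In mice grafted at onset, marrow of WT or G93A donors made no difference that passed the test for any member. In grafted MG, 0 of 9 tested members were called in early symptoms, with 0.00% of 11143 genes called and 1229 at an unadjusted p under 0.05, and 0 of 9 at end stage, with 0.00% called and 53 at an unadjusted p under 0.05. In grafted MP, 0 of 8 were called in early symptoms (0.00% of 10299 genes called, 245 at an unadjusted p under 0.05) and 0 of 8 at end stage (0.00% called, 1588 at an unadjusted p under 0.05). With 2 or 3 libraries in a group, the intervals are wide, and these results do not show that the members were alike.

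In early grafted MG, Il1rn was at 5.99, 3.17 and 1.31 FPKM with WT marrow and at 5.44, 15.1 and 15.4 FPKM with G93A marrow (-1.55 ± 0.49 on the log2 scale, limma, adjusted p = 0.407). Il1b was at 9.38, 7.36 and 3.03 FPKM with WT marrow and at 8.83, 17.4 and 54.3 FPKM with G93A marrow (-1.61 ± 0.77, adjusted p = 0.471). The groups overlapped in both genes. The library with the most Il1b was the one with S100a8 of 6605 FPKM, and WT-marrow replicate 3, with the least of both, had Mbp of 21258 FPKM against 446 to 5325 FPKM in the other 5. Without WT-marrow replicate 1, Il1rn and Casp1 were called, where 11.2% of all genes were called. With library quality weights 5 members were called, where 44.7% of all genes were.

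In grafted MG the ranges of Il18 and Il1r1 overlapped those of non-grafted end stage, though the tables were normalized separately and the sets were not tested against each other. Il18 ran from 4.01 to 14.3 FPKM over the 12 grafted MG libraries and Il1r1 from 1.18 to 3.86 FPKM. Grafted group means of Il18, at 7.65 to 11.2 FPKM, were all below the non-grafted end-stage mean of 13.7 FPKM. Grafted replicate 3 of early WT marrow had Il18 of 10.3 FPKM at Mbp of 21258 FPKM, beside 25.6 to 27.7 FPKM in the non-grafted pre-symptomatic libraries of like Mbp. Graft, stage and expression table also differ between these libraries, so the source of the difference in Il18 cannot be told apart. Il1a was above Il1b in 11 of the 12, Pycard ran from 10.1 to 71.8 FPKM, Casp1 from 5.67 to 32.6 FPKM and Nlrp3 from 1.16 to 11.0 FPKM. Il1r2 stayed at or below 14.6 FPKM.

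In the grafted nerve the decoy receptor varied widely between libraries of a group. Il1r2 was at 28.2, 167 and 124.91 FPKM (G93A marrow) and 184 and 89.8 FPKM (WT marrow) in early symptoms. At end stage it was at 541, 153 and 1675 FPKM with G93A marrow and 1291, 295 and 102.6 FPKM with WT marrow, and the marrow groups overlapped at both stages. The differences were 0.60 ± 1.10 and -0.61 ± 0.98 on the log2 scale. The 3 libraries with the most Il1r2 were also those with the most monocyte marker RNA in the grafted nerve, 19797, 13317 and 12797 FPKM in sum, at S100a8 of 34623, 42063 and 36592 FPKM, inside the range of the other 8 libraries (8355 to 71623 FPKM).

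At end stage in the grafted nerve, Casp1 was at 81.7, 50.9 and 87.6 FPKM with WT marrow and at 30.7, 23.4 and 21.97 FPKM with G93A marrow, without overlap (1.47 ± 0.37, limma, adjusted p = 0.151). Il1rap was at 4.45, 4.83 and 9.86 FPKM with WT marrow and at 19.6, 11.7 and 29.5 FPKM with G93A marrow, also without overlap (-1.51 ± 0.58, adjusted p = 0.255). Neither passed. Without WT-marrow replicate 2, Casp1 was called, where 2.69% of all genes were called. WT-marrow replicate 1 held 0.51 FPKM of Il1rn, while the other 10 grafted MP libraries held 11.9 to 42.2 FPKM.

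Of 50 other genes of the pathway, fixed as a list, the signalling and inflammasome genes that moved in MG were spread over several roles. In early symptoms 6 of 34 tested were called higher and 3 lower, and at end stage 11 higher and 5 lower, where 35.2% and 55.9% of all genes were called, with list medians of 0.46 and 0.90 on the log2 scale. At end stage the 6 with the largest differences were Il18bp, Irak3, a brake on receptor signalling (2.24 ± 0.57, limma, adjusted p = 0.00241), the alarmin Il33, which fell by 2.13 (SE 0.77, adjusted p = 0.0221), the inflammatory caspase Casp4 (2.11 ± 0.42, adjusted p = 4.75e-04), the calpain Capn1 (1.94 ± 0.53, adjusted p = 0.00393) and the channel Panx1 (1.84 ± 0.36, adjusted p = 4.03e-04). Il33 is a gene of oligodendrocytes and astrocytes. The 7 oligodendrocyte markers were lower in sum at end stage, as given above. The 7 astrocyte markers summed to 6329 to 8340 FPKM before symptoms and 628 to 5571 FPKM at end stage. The part of either cell type in the fall of Il33 was not tested. Against WT, 1 of 34 was called at end stage, Il18bp (1.79 ± 0.41, adjusted p = 0.00789), and 0 at onset.

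In the nerve and in both grafted sets 0 of the list passed. Before symptoms, 20 of 38 tested were called higher in MP than in MG and 3 lower, where 54.7% of all genes were called. The 6 with the largest differences were the neutrophil proteases Elane (7.11) and Prtn3 (5.69), Il33 (-6.73), the neutrophil elastase inhibitor Serpinb1a (5.86), Irak3 (4.91) and Ctsg (4.78), most of which are genes of neutrophils or their precursors. The change with stage differed between tissues for 5 of 38, where 19.8% of all genes were called. All 5 were lower in MP: Il1rl2 (-2.96), Irak3 (-2.72), Il18bp (-2.54), Panx1 (-2.21) and Naip2 (-2.20).

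The genes whose levels followed each member most closely are given as a description, over 33 MG libraries and 11747 genes or 18 MP libraries and 10258 genes, and all of these libraries share differences in cell makeup. In MG, Pycard went with Cd300c2 (r = 0.995), Ctsh (0.993), Trem2 (0.992), C1qc (0.992) and C1qb (0.990), genes of microglia and other macrophages. Il1r2 went with Dhrs9 (0.978), Lilra6 (0.969), Stfa2l1 (0.967), Crispld2 (0.966) and Orm1 (0.966), of which Stfa2l1 is in the neutrophil list. Il1rn went with Plaur (0.965), Osm (0.959) and Cd36 (0.958), Il1a with Gpr183 (0.983), Il1b with Pilra (0.976), Casp1 with Slc30a7 (0.976), Nlrp3 with Itgam (0.936), Il1r1 with Maff (0.938) and Il18 with Selk (0.942).

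In MP the likenesses were looser. Il1r2 went with Alox5ap (0.809), the activating protein of leukotriene synthesis, and with Fkbp5 (0.806), a co-chaperone of the glucocorticoid receptor, followed by BC117090 (0.769) and, further down, Crispld2 (0.752), which also ranked among its 5 in MG. Casp1 went with Sp100 (0.873). Il1b went with Gmip (0.890), Il1rn with Rtn3 (0.858), Pycard with Mcm3ap (0.822), Nlrp3 with B4galt3 (0.8002), Il18 with Tspan4 (0.766), Il1rap with Mrpl30 (0.758) and Il1a with Acp2 (0.725).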

How the data were processed

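RNA was sequenced from CD11b-bead isolates of spinal cord and sciatic nerve. Per the file headers the deposited values are FPKM by the authors, in one table for non-grafted and one for grafted mice, 58976 features each, of which 35679 without a symbol were left out of the tests. Build mm10 and the tools SAMtools, Picard, FastQC, DESeq2 and R 3.2.5 are listed in the submitters' processing notes. Aligner and counting method were not given in the sources used here, so sharing of reads between genes cannot be judged, and depth is unknown.

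Groups and replicate numbers came from the labels, and libraries of a group are different mice. Values were tested as log2(FPKM + 1) for genes with a mean of at least 1 FPKM, with limma 3.58.1 in R 4.3.3 (group means, trended empirical Bayes, Benjamini-Hochberg adjustment over all genes, called under 0.05), in 1 fit each for MG, MP, both together, grafted MG and grafted MP. The script was tested on simulated data. Relations with S100a8 used 100000 permutations. The members and lists were chosen with earlier results of these data known. All 10 members are named in the text, and of the pathway list the genes called, up to 6 per comparison with the largest change. Like genes are the 5 with the highest Pearson r. Alternatives were another pseudocount, no filter, median-ratio scaling, a neutrophil or oligodendrocyte score term, library weights, other controls, a replicate block and leaving out libraries.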

Additional observations from a re-analysis of the deposited data

Results flagged for a closer look

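Each group of 4 to 10 libraries was screened for a single library set apart from the rest of its group on the log2(FPKM + 1) scale (Dixon's test). Of 110 groups of values 11 had one, and chance alone gives about 1 in 20.

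Il1r2 had 3 of them: 83.66 FPKM in MG G93A onset replicate 5, 384.07 FPKM in MG G93A end stage replicate 4 and 780.36 FPKM in MP G93A end stage replicate 4. Il1rap was highest, at 21.17 FPKM, in MG G93A end stage replicate 4. Il1a was lowest, at 19.89 FPKM, in MG WT end-age replicate 3, and highest, at 5.27 FPKM, in replicate 2 of the MP libraries described as WT. Nlrp3 was lowest, at 0.64 FPKM, in MG WT onset-age replicate 4. Pycard was highest, at 36.91 FPKM, in MP G93A early replicate 1. Il1r1 stood out at low levels in MP, at 1.9 FPKM in early replicate 2, 1.7 FPKM in end-stage replicate 4 and 0.01 FPKM in replicate 3 of the libraries described as WT, where the other libraries of the group were listed at or near 0.

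The change from the pre-symptomatic stage to end stage differed between the tissues, by the interaction in limma, for Il1rn (-3.574), Pycard (-2.119) and Casp1 (-2.113), MP minus MG on the log2 scale.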

How the results depend on the processing

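Of 1942 repeats of single-gene values, 1782 kept direction and side of the threshold, 86 lost a call, 50 gained one, 17 with no test moved and 7 reversed (a direction was taken only where the change exceeded its SE). The number of members called against WT at end stage in MG was 2, and became 4 with library weights, 1 without libraries above 10000 FPKM of S100a8 and 4 with B6 controls (1 to 2 leaving out each library). At onset it was 2, and became 0 with no filter, median-ratio scaling, the oligodendrocyte term, only the groups compared or without the high-S100a8 libraries, and 8 with weights or B6 (0 to 3). With the oligodendrocyte term it fell from 6 to 2 in early symptoms (2 to 6) and from 7 to 1 at end stage against pre-symptomatic MG (6 to 8). For grafted MG in early symptoms it was 0, and 5 with weights (0 to 2), and for grafted MP at end stage 0 (0 to 1). Between tissues before symptoms it was 5, and 0 with the neutrophil and 2 with the oligodendrocyte term (3 to 6). For the stage change it was 3, and 0 with the oligodendrocyte term and 5 with only the groups compared (2 to 4). For S100a8 within MG groups it was 3, and 7 without subtracting group means or below 10000 FPKM, and in MP 0 and 1. The share of all genes called moved as well. Against WT it was 48.6% with weights and 46.2% with B6 at end stage, and 67.5% and 55.1% at onset. In the onset fits where 0 members were called, it was at most 0.272%. With the oligodendrocyte term it was 15.2% in early symptoms and 16.2% at end stage against pre-symptomatic MG. In early grafted MG with weights it was 44.7%. Between tissues before symptoms it was 10.0% with the neutrophil and 14.5% with the oligodendrocyte term. For the stage change it was 5.73% with the oligodendrocyte term and 20.9% with only the groups compared. For S100a8 no such share was computed. The cause of these changes was not tested.

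The 7 reversed values were Il1a (-0.615), Pycard (-0.573) and Casp1 (-0.626) at onset against WT with the oligodendrocyte term, Il1rap (-0.868) and Il1r2 (-1.035) between tissues with the neutrophil term, Pycard there (-1.368) with the oligodendrocyte term, Il1rn in grafted MP at end stage (0.487 without WT-marrow replicate 1, -1.855 to 0.487 over all libraries left out in turn). Besides these, r for Il1r2 with S100a8 in MP turned positive (0.150 without subtracting group means, 0.102 without 2 libraries). No grafted MG library exceeded 10000 FPKM of S100a8, so that alternative gave no value there.

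No comparison had a correlation over 0.1 in every pair of libraries with the same replicate number, so samples were not paired in the main fits. At end stage against WT the correlations were 0.08, -0.23, 0.16 and -0.57, and at onset -0.01, 0.50, -0.08 and 0.58. This does not exclude a pairing of some libraries. With a replicate block the members called were 0 at onset against WT, where 0.0340% of all genes were called. For the stage change they were 5, where 19.4% of all genes were called.

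Over all genes, the number called ranged over the alternatives from 357 to 5714 against WT at end stage (822 as reported), 0 to 7935 at onset (506), 1534 to 8357 in early symptoms (4137) and 1902 to 9314 at end stage against pre-symptomatic MG (6571). It ranged from 0 to 61 at end stage against pre-symptomatic MP (1, and 0 with the replicate block), 1180 to 8994 between tissues (6434) and 675 to 3015 for the stage change (2329). Library weights gave the highest of these numbers in each MG comparison and 4978 in early grafted MG (0).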
